A study of Mus musculus with 6 samples.

Results

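Oxidative phosphorylation is carried out by 5 protein complexes of the inner mitochondrial membrane. Complexes I and II pass electrons from NADH and succinate to ubiquinone, complex III passes them on to cytochrome c, and complex IV hands them to oxygen, while complexes I, III and IV pump protons. Complex V, the ATP synthase, makes ATP from the returning protons. In the kidney this machinery is most abundant in the proximal tubule and the thick ascending limb, where it fuels solute reabsorption. The genes described here were taken by symbol, as those beginning with Nduf followed by a, b, c, s or v, with Uqcr, with Cox4 to Cox8 or with Atp5, together with Sdha to Sdhd and Cyc1. This gave 90 of the 22180 genes tested, each represented by its probe set of highest mean. By symbol, 34 were assigned to complex I, 4 to complex II, 9 to complex III, 17 to complex IV and 18 to complex V, and 8 were complex I assembly factors. The 90 included the pseudogenes Atp5c1-ps and Uqcrh-ps1, which left 80 subunit genes, with Cox7a2l, a supercomplex factor, counted among them. Ndufa4 carries a complex I symbol but is now counted as a part of complex IV. The subunits encoded by mitochondrial DNA were not analysed here.

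Expression was measured on 6 single-colour Affymetrix arrays of total RNA from kidneys taken at 4 weeks without any treatment, 3 from Cre-negative and 3 from Cre-positive mice. For both groups the labels give the same conditional Pals1/Mpp5 line, in a C56Bl/6 background as the label spells it, and the Six2-Cre transgene, with a mixed background for the samples. Pals1 is an apical polarity scaffold, and the series addresses its haplo-insufficiency in nephrons. The sources used here do not give how many conditional alleles each mouse carried or whether each array stands for its own mouse. The p-values therefore measure only how far these 6 samples differ among themselves, and that spread may be technical. Six2-Cre acts in the progenitors of nephron epithelium, which do not give rise to collecting ducts, whereas the RNA came from whole tissue.

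Mpp5 itself stood at 8.66, 8.69 and 8.78 in the Cre-negative and at 8.04, 8.06 and 8.20 in the Cre-positive arrays, on the log2 scale of the deposited values. The groups did not overlap, and the difference was -0.61 ± 0.09 (SE, n = 3 per group, limma adjusted p = 0.00232). Array medians over all probe sets ran from 5.55 to 5.64. Xist and Y-linked transcripts marked 2 of the 3 Cre-negative and 0 of the 3 Cre-positive arrays as female. Adrenal transcripts were high in Cre-negative replicate 2, and several of skeletal muscle in Cre-positive replicate 2. The count over the 90 genes is given with and without these arrays, and list counts mostly with sex as a factor too.

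Transcripts of the respiratory chain and the ATP synthase were lower in Cre-positive kidneys across all 5 complexes. Of the 90 genes, 66 fell and 0 rose at a limma adjusted p under 0.05, and 24 did not pass. Of all genes tested, 11.1% fell and 10.7% rose by the same rule, and among genes at or above the median expression level 18.1% fell. At an unadjusted p under 0.05 the limma counts of the 90 were 75 lower and 1 higher, Cox6b2. No share of all genes was counted at that unadjusted threshold. The median difference of the 90 genes was -0.54 on the log2 scale, a level 31.1% lower, against -0.01 over all genes. The falls were moderate: 6 genes differed by -1 or more, 44 by between -1 and -0.5 and 35 by less than 0.5, while 5 had differences above 0. In 79 of the 90 genes the highest Cre-positive value was under the lowest Cre-negative value, which held for 19.9% of all genes. For any 1 such gene, the exact two-sided permutation test over arrays gives p = 0.10, the smallest that 3 against 3 arrays allow.

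**Figure D1:**
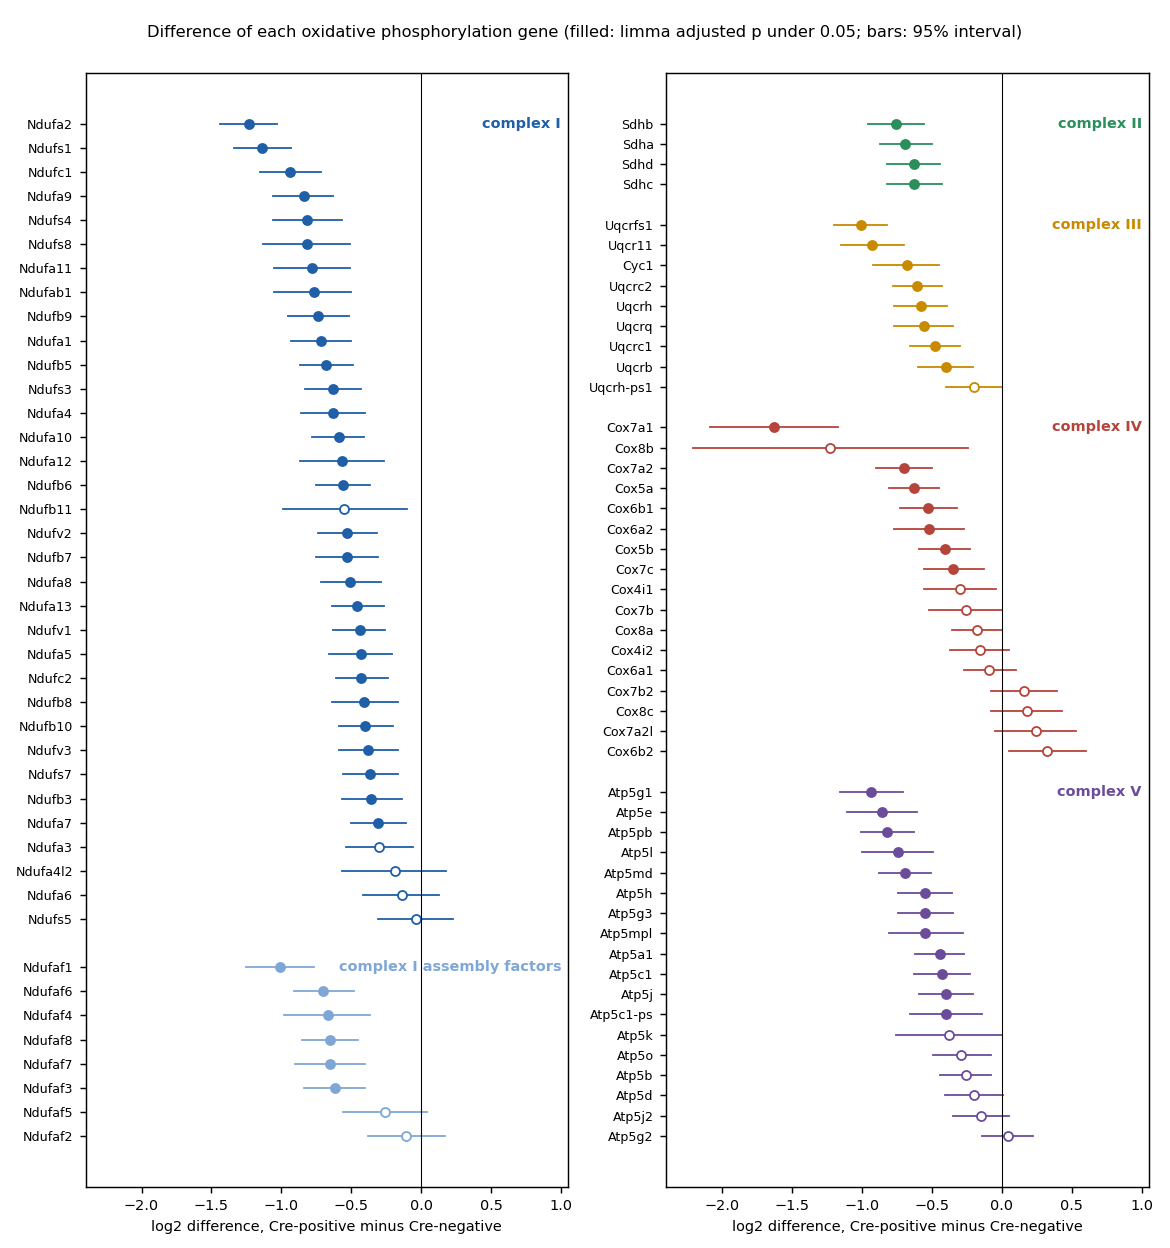
Log2 difference, Cre-positive minus Cre-negative (x axis), of each of the 90 genes (y axis) with its 95% interval from limma, n = 3 arrays per group; filled points passed an adjusted p of 0.05. Of the 90 points 85 lie left of 0, from -1.63 for Cox7a1 to 0.32 for Cox6b2, and no filled point lies right of it.

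Several measures moved with these falls. Of 13 measured proximal tubule markers 10 fell and 0 rose, with a median of -1.11 and a mean level of 12.03 to 12.12 in Cre-negative and 10.90 to 11.06 in Cre-positive arrays. Of 7 thick ascending limb markers 4 fell and 1 rose, and of 9 macrophage markers 8 rose and 0 fell, their mean level going from between 7.19 and 7.32 to between 8.49 and 9.51. Of the other nephron markers, 4 of 5 for podocytes fell and 0 rose (median -1.27), and 4 of 5 for the distal convoluted tubule fell and 1 rose (median -0.63). Intercalated and principal cells are both found in the collecting duct. Of 6 intercalated cell markers 3 fell and 0 rose (median -0.40), while of 5 principal cell markers 0 fell and 3 rose (median 0.54). Of 8 pericyte and vascular smooth muscle markers 1 fell and 3 rose. With sex as a second factor 9 of 10 proximal tubule, 3 of 5 thick ascending limb and 5 of 8 macrophage calls held. For podocytes 3 of 4 calls held, for intercalated cells 0 of 3 and for the distal convoluted tubule 1 of 5. For principal cells 2 of 3 held, and for pericytes and vascular smooth muscle 2 of 4. Fewer cells of a type and less RNA per cell cannot be told apart in bulk RNA, and the part of cell makeup in the falls was not tested. Against the male Cre-negative array alone, 85 of the 90 genes were lower, with a median of -0.51. With sex as a second factor, limma called 36 of the 90 lower and 0 higher, against 5.05% of all genes lower. Of the 66 calls among the 90 genes 36 held, and of the 4844 calls over all genes 1922 held. Without the 2 arrays that carried adrenal or muscle transcripts it called 42 lower and 0 higher, against 4.39% of all genes lower, and with male arrays alone (3 against 1, the lone array assumed to vary like the others) 14 and 0, against 2.66%. Centring each array on its median made the split of calls over all genes 3112 lower to 1925 higher, against 2472 to 2372 as deposited, and the members' median was then -0.60. Among the 35 genes of mean level at least 10, 34 had differences below 0, with a median of -0.53. In the 38 of level 7 to 10 the median was -0.63, and in the 17 below 7 it was -0.20. Differences can be compressed near the lower end of an array's scale, and whether this shaped the medians by level was not tested.

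**Figure D2:**
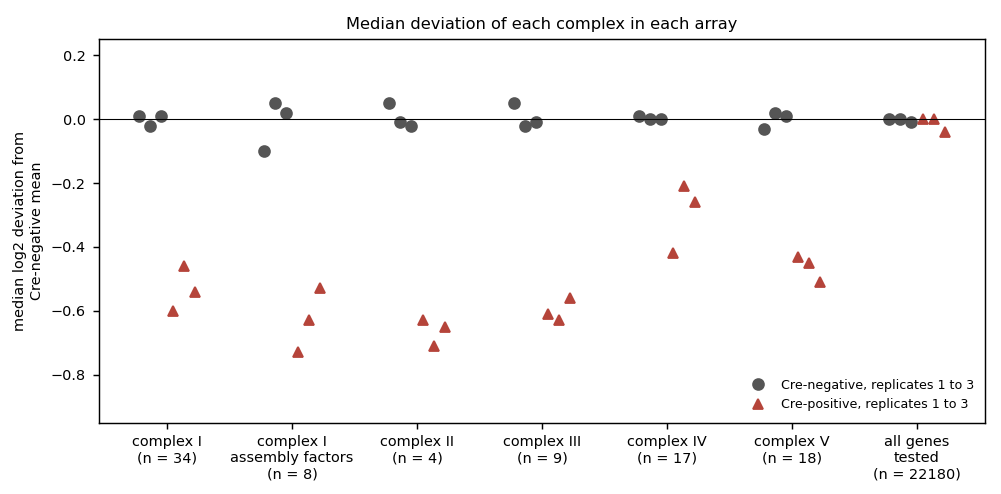
Median log2 deviation from the Cre-negative mean (y axis) of the genes of each complex in each array; grey circles are Cre-negative and red triangles Cre-positive arrays. The Cre-positive medians lie between -0.43 and -0.71 in complexes I, II, III and V and at -0.42, -0.21 and -0.26 in complex IV, and all 6 arrays lie within 0.04 of 0 over all genes tested.

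Complex I, the entry point for electrons from NADH, had 29 of 34 genes lower and 0 higher, with a median of -0.54. All 34 differences were below 0, and in 31 the groups did not overlap. Of the 29 calls 14 held with the sex term. Of the measured subunits of the catalytic core, which hold the flavin and the iron-sulphur clusters, 6 of 6 fell, with a median of -0.58. Ndufs1, the largest iron-sulphur subunit, stood at 10.19, 10.14 and 10.18 in Cre-negative and at 8.94 to 9.15 (mean 9.03) in Cre-positive arrays. The groups were far apart, a 54.5% lower level (-1.14 ± 0.09, limma adjusted p = 0.000190). Ndufs8, another iron-sulphur subunit, was at 11.04, 11.03 and 11.03 against 9.97, 10.18 and 10.49, a difference of -0.82 ± 0.13. Its Cre-positive arrays were spread more widely (SD 0.27) than its Cre-negative ones (SD 0.01). Ndufv1, which binds NADH and the flavin, differed by -0.44 ± 0.08 (limma adjusted p = 0.00665), Ndufv2 by -0.53 ± 0.09, Ndufs3 by -0.63 ± 0.09 and Ndufs7 by -0.37 ± 0.08. The Ndufs7 call was lost without any 1 of the Cre-negative arrays or without Cre-positive replicate 2 (limma adjusted p of 0.0542 to 0.0633). With the sex term, 2 of these 6 calls held, those of Ndufs1 and Ndufs3.

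Among the other complex I subunits, 23 of 28 fell. Ndufa2, an accessory subunit of the arm that faces the matrix, had the largest fall of the complex, from 9.57, 9.65 and 9.58 to 8.25, 8.44 and 8.41. No Cre-positive value came within 1 log2 unit of a Cre-negative one (-1.23 ± 0.09, limma adjusted p = 0.000131). Ndufc1, a small membrane-arm subunit, followed at -0.94 ± 0.09, and Ndufa9, which sits near the ubiquinone site, at -0.84 ± 0.09. Ndufs4, an accessory subunit whose loss causes complex I deficiency, differed by -0.82 ± 0.11. Ndufab1, the mitochondrial acyl carrier protein, differed by -0.77 ± 0.12 and Ndufa11 by -0.78 ± 0.12. The remaining falls ran from -0.31 for Ndufa7 to -0.74 for Ndufb9. The 5 that did not pass were Ndufa3 (-0.30 ± 0.10), Ndufb11 (-0.55 ± 0.19), Ndufa6 (-0.14 ± 0.12), Ndufa4l2 (-0.19 ± 0.16) and Ndufs5 (-0.04 ± 0.12). Ndufs5 and Ndufb11 had mean levels of 5.38 and 5.88, and Ndufb11 was at 6.04 in Cre-positive replicate 3 against 5.55 and 5.24 in the other Cre-positive arrays; without replicate 3 it was called lower (-0.76, limma adjusted p = 0.00833). Ndufa4 fell (-0.63 ± 0.10), while its hypoxia-inducible relative Ndufa4l2 had overlapping groups.

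Of the complex I assembly factors with Ndufaf symbols, which are not part of the finished enzyme, 6 of 8 fell and 0 rose, with a median of -0.65. Ndufaf1 was at 8.80, 8.82 and 9.06 in Cre-negative and at 7.82, 7.85 and 7.99 in Cre-positive arrays, with no overlap and a difference of -1.01 ± 0.10 (limma adjusted p = 0.000594). Ndufaf6 (-0.70 ± 0.09), Ndufaf4 (-0.67 ± 0.13), Ndufaf8 (-0.65 ± 0.09), Ndufaf7 (-0.65 ± 0.11) and Ndufaf3 (-0.62 ± 0.10) also fell. Ndufaf5 (-0.26 ± 0.13) and Ndufaf2 (-0.11 ± 0.12), the dimmest of the 8, did not pass. In a second list of complex I assembly genes with other names, 10 of 11 fell and 0 rose, with a median of -0.71. Acad9 (-1.19 ± 0.09) and Ecsit (-0.72 ± 0.09), partners of Ndufaf1 in an assembly intermediate, and Nubpl (-1.15 ± 0.16), which delivers iron-sulphur clusters, had the smallest p-values. The sex term left 3 of the 6 Ndufaf calls and 5 of the 10 others.

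Complex II, which is also the succinate dehydrogenase of the TCA cycle, fell in 4 of 4 genes, with a median of -0.66 and little spread. Sdha, the flavoprotein, was at 11.81, 11.67 and 11.72 in Cre-negative and at 11.08, 11.05 and 11.02 in Cre-positive arrays (-0.69 ± 0.08, limma adjusted p = 0.00106). Sdhb, the iron-sulphur subunit, was at 9.99, 10.01 and 10.03 against 9.36, 9.24 and 9.16 (-0.76 ± 0.09, limma adjusted p = 0.000894). The membrane anchors Sdhc and Sdhd each differed by -0.63 ± 0.08. In all 4 genes the groups were separate, and all 4 calls held with the sex term, at limma adjusted p of 0.0167 to 0.0352. Of 4 complex II assembly factors 3 fell and 0 rose, with a median of -0.50: Sdhaf4 (-0.72 ± 0.09), Sdhaf3 (-0.62 ± 0.09) and Sdhaf2 (-0.39 ± 0.10). Of those 3 calls 2 held with the sex term.

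Complex III had 8 of 9 genes lower, the exception being the pseudogene Uqcrh-ps1 (-0.20 ± 0.09), whose level of 3.34 lay below the 3.66 to 4.54 at which Y-linked transcripts stood in the female arrays. The median was -0.58. Uqcrfs1, the Rieske iron-sulphur protein, was at 8.70, 8.62 and 8.65 in Cre-negative and at 7.60, 7.72 and 7.63 in Cre-positive arrays. The groups were about 1 log2 unit apart with little spread in either, a 50.3% lower level (-1.01 ± 0.08, limma adjusted p = 0.000212). Uqcr11, a small subunit, differed by -0.93 ± 0.10. Cyc1, the haem-bearing cytochrome c1, was at 11.40, 11.21 and 11.28 against 10.47, 10.63 and 10.73 (-0.68 ± 0.10, limma adjusted p = 0.00261). The core proteins Uqcrc2 (-0.61 ± 0.08) and Uqcrc1 (-0.48 ± 0.08), the hinge protein Uqcrh (-0.58 ± 0.08) and the small subunits Uqcrq (-0.56 ± 0.09) and Uqcrb (-0.40 ± 0.08) fell as well. With the sex term 6 of the 8 calls held, not those of Uqcrc1 and Uqcrb. Of 6 complex III assembly factors 4 fell and 0 rose, with a median of -0.55, led by Lyrm7 (-0.96 ± 0.10), which handles the Rieske protein, Uqcc1 (-0.65 ± 0.08) and Bcs1l (-0.67 ± 0.13), which inserts it, and 3 of the 4 calls held with the sex term.

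Complex IV, cytochrome c oxidase, had the smallest median difference of the 5 complexes, -0.30, with 7 of 17 genes lower, 0 higher and 10 that did not pass. With the sex term 3 of the 7 calls held, and with a second quantile normalization the median was -0.20. Whether this median differed from those of the other complexes was not tested. Several of its subunits exist as tissue-specific isoforms, which are described separately. Leaving those and Cox7a2l aside, 5 of 9 subunit genes fell, with a median of -0.35. Cox7a2 was at 11.59, 11.50 and 11.49 in Cre-negative and at 10.74, 10.84 and 10.91 in Cre-positive arrays (-0.70 ± 0.09, limma adjusted p = 0.00124). Cox5a, which binds the catalytic core from the matrix side, was at 9.91, 9.90 and 9.88 against 9.32, 9.26 and 9.22 (-0.63 ± 0.08, limma adjusted p = 0.00128). Both were separate between the groups. Cox6b1 (-0.53 ± 0.09), which faces the intermembrane space, Cox5b (-0.41 ± 0.08) and Cox7c (-0.35 ± 0.09) fell too, though Cox7c lost its call without any 1 array other than Cre-positive replicate 3 (limma adjusted p of 0.0628 to 0.125). Cox4i1, the largest nuclear-encoded subunit, stood at 10.80, 10.66 and 10.75 against 10.56, 10.52 and 10.22, lower in all 3 Cre-positive arrays but without passing the test (-0.30 ± 0.11, limma adjusted p = 0.0961). The brightest members did not pass: Cox6a1 at a mean of 12.69 (-0.09 ± 0.08), Cox8a at 12.26 (-0.18 ± 0.08) and Cox7b at 11.80 (-0.26 ± 0.11). Of 21 complex IV assembly factors 15 fell and 0 rose, with a median of -0.46, and 3 of the 15 calls held with the sex term. They included Lrpprc (-0.82 ± 0.10), which stabilises mitochondrial mRNA, Cox15 (-0.80 ± 0.09), a haem A synthesis enzyme, and Taco1 (-0.76 ± 0.09), an activator of translation of a mitochondrially encoded subunit.

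Of the isoforms of complex IV typical of muscle and heart, Cox7a1 and Cox6a2 fell and Cox8b did not pass. Cox7a1, which had the largest difference of the 90 genes, was at 9.51, 9.44 and 9.55 in Cre-negative and at 7.39, 8.26 and 7.95 in Cre-positive arrays. All Cre-positive values were more than 1 log2 unit lower, a 67.7% lower level (-1.63 ± 0.20, limma adjusted p = 0.00121). Cox8b was at 8.73, 8.22 and 9.01 against 6.54, 8.40 and 7.33, where Cre-positive replicate 2 overlapped the Cre-negative arrays, and it did not pass (-1.23 ± 0.43, limma adjusted p = 0.0801). Without Cre-positive replicate 2, the array with muscle transcripts, Cox8b differed by -1.71 (limma adjusted p = 0.0122, 0.0122 to 0.234 over its alternatives) and Cox7a1 by -1.83. Several muscle markers were high in that array, though Mb, Myh1 and Myh2 were not. Atp2a1, the fast-muscle calcium pump, was at 8.53 there against 4.62 to 5.20 in the other 5 arrays. The mean level of 16 muscle markers was 6.91 in that array and reached at most 5.53 in the Cre-negative arrays, and 1 of the 16 rose and 0 fell. Their part in the Cox8b value was not tested. Cox6a2, the third muscle isoform, was dimmer, at 6.39, 6.15 and 6.26 against 5.73, 5.91 and 5.62 (-0.52 ± 0.11, limma adjusted p = 0.0119). Its groups were separate, but its call did not hold with the sex term (limma adjusted p = 0.110) or without Cre-negative replicate 1 (limma adjusted p = 0.0517).

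Cox7a1 and Cox8b are also made in brown fat, so markers of fat were set beside them. Ucp1, the uncoupling protein of brown fat mitochondria, was at 8.69, 8.07 and 8.82 in Cre-negative and at 5.38, 5.45 and 4.63 in Cre-positive arrays, a difference of -3.38 ± 0.26 (limma adjusted p = 0.000180). No array of either group came near the other group. Of the 8 fat markers, which include Ucp1, 2 fell and 1 rose, and their mean level was 7.34 to 7.54 in Cre-negative and 6.93 to 7.24 in Cre-positive arrays. Lep, which encodes leptin, fell too (-0.73 ± 0.16, limma adjusted p = 0.0164). The Lep call did not hold with the sex term (limma adjusted p = 0.179). Nor did it hold without the 2 arrays that carried adrenal or muscle transcripts (limma adjusted p = 0.0665). Plin1, a lipid droplet gene, was at 7.77, 7.57 and 7.66 against 6.17, 7.56 and 7.39 and did not pass (-0.63 ± 0.32). Cidea, a brown fat gene, was at 7.84 to 8.42 in the 6 arrays (-0.11 ± 0.17), and Fabp4 at 11.27 to 11.76 (0.07 ± 0.15). Elovl3, another brown fat gene, was near the level of absent transcripts, at 3.68 to 4.37, in all 6 arrays, and did not pass (-0.05 ± 0.19). Adipoq, which encodes adiponectin, was at 5.40 to 5.68 (0.01 ± 0.11), and the lipid droplet gene Cidec rose (1.70 ± 0.14). The part of fat tissue in the Cox7a1 and Cox8b values was not tested.

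**Figure D3:**
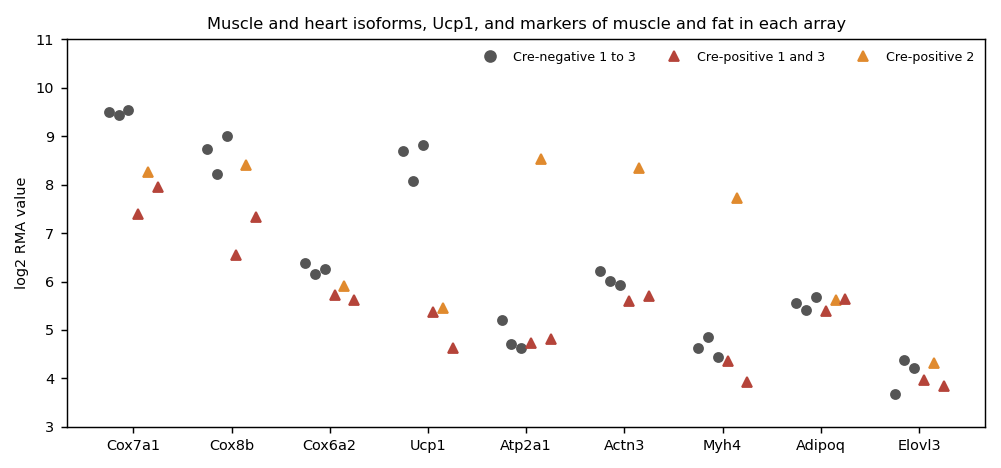
Log2 RMA values (y axis) of Cox7a1, Cox8b, Cox6a2, Ucp1, the muscle markers Atp2a1, Actn3 and Myh4 and the fat markers Adipoq and Elovl3 in each array; grey circles are Cre-negative arrays, red triangles Cre-positive replicates 1 and 3, and orange triangles Cre-positive replicate 2. Ucp1 separates the groups by more than 2 log2 units. Adipoq and Elovl3, which did not pass, are from a list of 8 fat markers that includes Ucp1. Of those 8, 2 fell (Ucp1 and Lep) and 1 rose (Cidec). Atp2a1, Actn3 and Myh4, shown here from a list of 16 muscle markers, stand out in Cre-positive replicate 2 alone, as in Atp2a1 at 8.53.

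The remaining isoforms of complex IV did not pass. Cox6b2, a testis isoform, was the member with the highest difference, at 6.35, 6.60 and 6.58 against 7.04, 6.72 and 6.74 (0.32 ± 0.12, limma adjusted p = 0.0963). Cox7b2 and Cox8c, also testis isoforms, had mean levels of 2.71 and 3.92, in the range of absent transcripts or below it. Cox4i2, the oxygen-sensitive isoform of subunit 4, was at 5.94 (-0.16 ± 0.09). Cox7a2l, which encodes a factor that joins complexes III and IV into supercomplexes, was at 7.50, 7.35 and 7.49 against 7.82, 7.81 and 7.42. Its groups overlapped through Cre-positive replicate 3, and it did not pass (0.24 ± 0.13, limma adjusted p = 0.236). Without that array it was called higher, at 0.37 (limma adjusted p = 0.0294, 0.0294 to 0.72 over its alternatives).

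Complex V, the ATP synthase, had 12 of 18 genes lower and 0 higher, with a median of -0.44, and 11 of 17 without the pseudogene Atp5c1-ps. That pseudogene, counted among the 66 that fell, had a level of 3.20, below the 3.66 to 4.54 of Y-linked transcripts in the female arrays. The catalytic head of complex V fell in 3 of 5 genes: Atp5e, the epsilon subunit (-0.86 ± 0.11), Atp5a1, the alpha subunit (-0.44 ± 0.08), and Atp5c1, the gamma subunit of the rotor (-0.43 ± 0.08). Atp5b, the catalytic beta subunit and the brightest of the 90 genes at a mean of 12.90, differed by -0.26 ± 0.08 and missed the threshold (limma adjusted p = 0.0507), as did Atp5d (-0.20 ± 0.09). For both, the groups did not overlap. Atp5pb, subunit b of the peripheral stalk, was at 10.83, 10.82 and 10.87 in Cre-negative and at 9.93, 10.10 and 10.02 in Cre-positive arrays. With -0.82 ± 0.08 and a limma adjusted p of 0.000560 it had the smallest p of the complex. The stalk subunits Atp5h (-0.55 ± 0.08) and Atp5j (-0.40 ± 0.08) fell, and Atp5o, which links the stalk to the head, did not pass (-0.29 ± 0.09). Of the small membrane subunits, Atp5l (-0.74 ± 0.11), Atp5md (-0.69 ± 0.08) and Atp5mpl (-0.55 ± 0.11) fell, and Atp5k (-0.38 ± 0.16) and Atp5j2 (-0.15 ± 0.09) did not pass. Of 6 assembly factors and inhibitors of the enzyme 5 fell and 0 rose, with a median of -0.53. Fmc1 (-0.81 ± 0.09), Tmem242 (-0.51 ± 0.08) and Tmem70 (-0.62 ± 0.11) led them, and Atpif1, the inhibitor protein, did not pass (-0.14 ± 0.08). The sex term left 6 of the 12 calls of complex V and 2 of these 5.

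Subunit c, which forms the rotating ring of complex V, is encoded by 3 genes whose mature proteins are the same and whose import sequences differ. Atp5g1 was at 6.55, 6.83 and 6.73 in Cre-negative and at 5.73, 5.74 and 5.84 in Cre-positive arrays (-0.94 ± 0.10, limma adjusted p = 0.000643). Atp5g3 was at 10.14, 10.16 and 10.25 against 9.66, 9.55 and 9.68 (-0.55 ± 0.08, limma adjusted p = 0.00319). Atp5g2 was at 11.04, 11.14 and 11.09 against 11.12, 11.16 and 11.12, with overlapping groups (0.04 ± 0.08, 95% interval -0.14 to 0.22). Its second probe set also differed by 0.04. With median centring the Atp5g2 difference was just below 0. The difference between Atp5g1 and Atp5g2 within an array moved by -0.98 from Cre-negative to Cre-positive arrays, and that between Atp5g3 and Atp5g2 by -0.59. Neither contrast overlapped between groups. Of 8 such isoform contrasts, 5 had groups that did not overlap, each with an exact two-sided permutation p = 0.10 (0.16 after Benjamini-Hochberg adjustment over the 8). The other 3 non-overlapping contrasts were Cox7a1 less Cox7a2 (-0.93), Cox7a2 less Cox7a2l (-0.94) and Cox6a2 less Cox6a1 (-0.43). Those for Cox8b, Cox4i1 and Ndufa4 against their isoforms had overlapping groups, with exact permutation p of 0.20 to 0.60. As these genes are closely similar, a share of signal from a relative cannot be told apart.

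**Figure D4:**
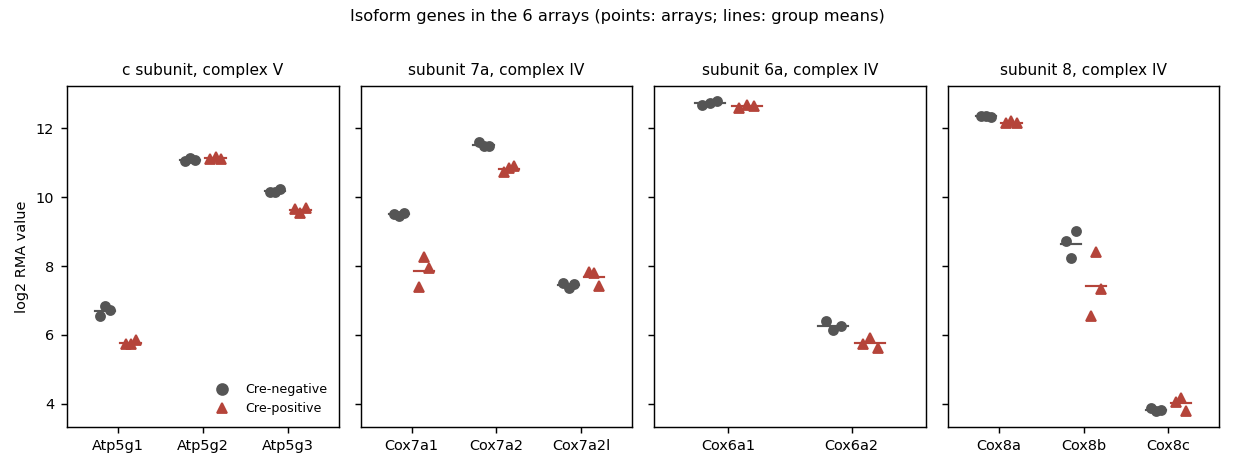
Log2 RMA values (y axis) of isoform genes of complexes V and IV in the 6 arrays; grey circles are Cre-negative, red triangles Cre-positive arrays, and lines are group means. Atp5g1 and Atp5g3 lie lower in all 3 Cre-positive arrays while Atp5g2 stays between 11.04 and 11.16 in all 6, and Cox8b overlaps where Cox7a1 does not.

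The lists that serve the respiratory chain showed lower levels as well, set here beside the 73.3% of the 90 genes that fell. Of 17 TCA cycle and pyruvate dehydrogenase genes, which supply electrons, 16 fell and 0 rose, with a median of -0.65. Dld, a dehydrogenase subunit shared by several complexes (-1.08 ± 0.08), Sucla2 (-1.03 ± 0.08) and Dlst (-0.75 ± 0.08) had the smallest p-values. Of 18 genes of mobile carriers and ubiquinone synthesis 10 fell and 0 rose, with a median of -0.36, including Coq8a (-0.95 ± 0.11), Coq9 (-0.82 ± 0.10) and Pdss2 (-0.68 ± 0.08), all of ubiquinone synthesis. Of 71 mitochondrial ribosomal proteins, which serve translation of the subunits encoded in mitochondria, 44 fell and 0 rose (median -0.39), led by Mrpl12 (-0.77 ± 0.09), Mrps5 (-0.65 ± 0.09) and Mrps28 (-0.63 ± 0.09). Of 22 protein import genes 12 fell and 0 rose (median -0.31), led by Tomm40l (-0.79 ± 0.08), Timm9 (-0.93 ± 0.14) and Timm17a (-0.54 ± 0.08). Of the 5 measured genes of uncoupling and other outlets for the proton gradient or ATP 2 fell and 0 rose (median -0.21), Ucp1 and the ADP/ATP carrier Slc25a5 (-0.31 ± 0.09). With the sex term 11 of the 16 TCA calls held, 6 of the 10 for carriers and ubiquinone synthesis, 13 of the 44 for the mitochondrial ribosome, 2 of the 12 for import and 1 of the 2 for uncoupling. These lists were not tested against each other or against the 90 genes.

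**Figure D5:**
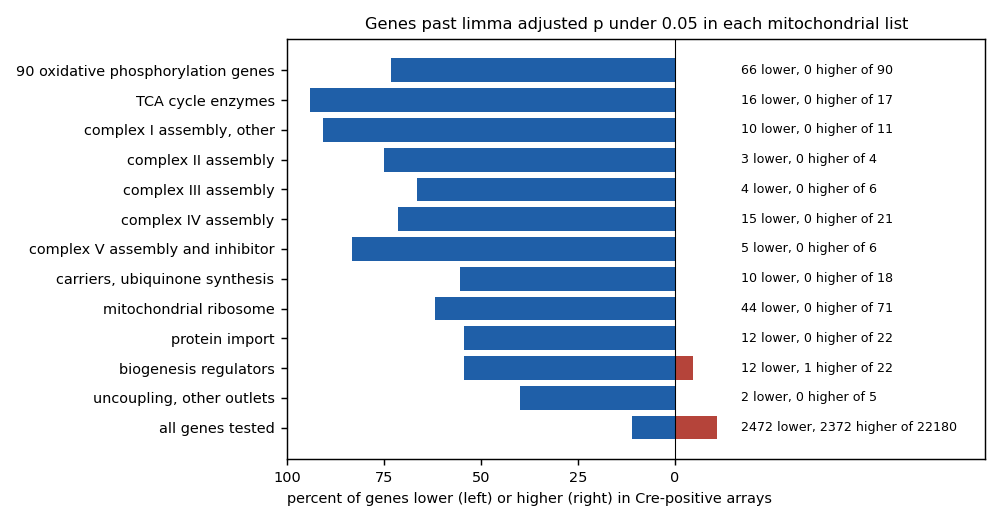
Percent of the genes of each mitochondrial list (y axis) that were lower (blue, left of 0) or higher (red, right of 0) in Cre-positive arrays at a limma adjusted p under 0.05. Blue bars exceed 50% in the oxidative phosphorylation genes, 66 of 90, and in 10 of the 11 other lists, the exception being uncoupling and other outlets at 2 of 5, against 2472 lower and 2372 higher among all 22180 genes.

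Of 22 regulators of mitochondrial biogenesis 12 fell and 1 rose, with a median of -0.43. Those with the smallest p-values were Tfb2m (-0.76 ± 0.10) and Tfb1m (-0.85 ± 0.14), related to mitochondrial transcription and ribosome assembly, and Top1mt, the mitochondrial topoisomerase (-0.73 ± 0.11). Ppargc1a, the coactivator of respiratory gene transcription, was at 10.79, 10.85 and 10.70 in Cre-negative and at 10.35, 10.38 and 10.26 in Cre-positive arrays (-0.45 ± 0.09, limma adjusted p = 0.00809). Its groups were separate. Tfam, which packages mitochondrial DNA, was at 7.76, 7.69 and 7.59 against 6.85, 6.96 and 7.30 (-0.64 ± 0.13). Of the nuclear factors known to bind promoters of respiratory genes, Gabpa (-0.41 ± 0.10) and Esrrg (-0.57 ± 0.10) fell, while Nrf1 (0.14 ± 0.10), Yy1 (0.08 ± 0.08) and Esrra (-0.40 ± 0.14) did not pass. Differences between these factors were not tested. The member that rose was Pprc1, a coactivator related to Ppargc1a (0.45 ± 0.13, limma adjusted p = 0.0446). With the sex term 2 of the 13 calls of this list held. Ppargc1a, Tfam, the nuclear factors and Pprc1 were singled out after their values were seen.

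As the members moved together, their promoters were searched for core letters of 4 motifs known from respiratory genes, on both strands. RefSeq promoters (GRCm38.p6), from 250 bases before to 50 after the start, were held for 72 of the 90 genes and for 16990 of all tested genes. The NRF-1 letters GCATGCGC stood in 16.7% of the 72 and in 4.06% of the 16990, the ETS letters CCGGAAG, bound by GABP, in 26.4% and 12.7%, the YY1 letters AAGATGGCG in 9.72% and 2.17%, and the ERR letters TCAAGGTCA in 2.78% and 0.365%. At least 1 motif stood in 32 of the 72 promoters, and 8 held 2 or more of the 4. Among the 72, the NRF-1 letters stood in 7 of 53 promoters of genes that fell and in 5 of the 19 others, and the ETS letters in 16 of 53 and 3 of 19. Of the 16990 genes with a promoter entry 11.8% fell and 10.5% rose. Of the 689 with NRF-1 letters 107 fell and 54 rose, of the 2156 with ETS letters 347 fell and 216 rose, and of the 368 with YY1 letters 67 fell and 24 rose. Of the 62 with ERR letters more rose, 12, than fell, 6. A match describes letters and not a bound site.

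The windows of 60 bases before the start that hold NRF-1 letters are shown for 4 genes that fell and for 2 that did not pass, to show that the letters occur in both. They are given 5′ to 3′ on the gene's strand, with the NRF-1 letters in capitals. The letters and their reverse complement can overlap, and 1 copy is marked. They lie at chr4:140961191-140961250 (+) for Sdhb, chr17:56717678-56717737 (+) for Ndufa11, chr4:24897946-24898005 (+) for Ndufaf4, chr9:44920933-44920992 (-) for Atp5l, chr15:102671054-102671113 (-) for Atp5g2 and chr5:115349085-115349144 (-) for Cox6a1.
Sdhb: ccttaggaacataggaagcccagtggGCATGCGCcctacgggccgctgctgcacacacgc
Ndufa11: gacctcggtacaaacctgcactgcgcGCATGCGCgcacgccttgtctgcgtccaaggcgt
Ndufaf4: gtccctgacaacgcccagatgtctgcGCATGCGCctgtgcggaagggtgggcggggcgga
Atp5l: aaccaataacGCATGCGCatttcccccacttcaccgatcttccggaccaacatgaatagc
Atp5g2: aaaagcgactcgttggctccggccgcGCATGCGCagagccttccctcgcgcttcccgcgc
Cox6a1: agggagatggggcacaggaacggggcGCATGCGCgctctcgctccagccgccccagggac
The first 4 differed by -0.76, -0.78, -0.67 and -0.74, and the last 2 by 0.04 and -0.09 on the log2 scale. Windows with these letters that are not shown belong to Ndufa8, which fell (-0.51), and to Ndufa6 (-0.14) and Atp5k (-0.38), which did not pass. The last 2 shown are thus those with differences nearest 0.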

How the data were processed

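The deposited values of the 6 arrays, for 41345 probe sets, are on the log2 scale. The submitters' processing notes list RMA, a method that corrects background, quantile normalizes and summarises probe sets, and Partek, with no version. The genome build and annotation were not given in the sources used here. The log2 scale was read from RMA's convention and the range of 1.89 to 13.6. GEO's platform annotation gave 23521 probe sets exactly 1 symbol, 1814 several and 16010 none; probe sets with several or none did not enter the test. The 90 members came from 99 probe sets. No column of other samples was present (0), and no filter was applied. The test was limma's two-sided moderated test (version 3.58.1, R 4.3.3, lmFit and eBayes), and p-values had Benjamini-Hochberg adjustment over 22180 genes and a threshold of 0.05; tables and figures used Python 3.11.15. No depth applies to arrays; their number limits the precision, and scanner files were not used here, so no batch could be tested.

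Members and lists were chosen with earlier results of these data known. Named are the called members by complex, with full values for those of smallest p, the largest rises and falls, central subunits, isoform sets and, per other list, the 3 of smallest p. Correlations of deviations between same-numbered arrays were 0.0297, -0.0422 and -0.0149, and those between arrays of different numbers ran from -0.0377 to 0.0493. They showed no pairing by replicate number, but with so few arrays they cannot exclude it. On simulated data with the real means and spreads (22180 genes, 50 changed per size), limma called 16% of genes changed by -0.5, 66% by -0.8, 76% by -1 and 96% by -2, and 3 unchanged genes. Only 200 genes were changed there, against 4844 called in the real comparison. The adjustment was therefore stricter in the simulation, and its shares do not carry over to the real data. Alternatives were other scalings, filters, variance models, thresholds, a sex term, male arrays alone, a replicate block and leaving out arrays; leaving out pseudogenes was added after seeing the data.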

Additional observations from a re-analysis of the deposited data

How the results depend on the processing

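The count of 66 lower members was 36 with the sex term and 42 without both arrays carrying other tissues' transcripts. With male arrays alone it was 14. These fits have fewer arrays or degrees of freedom. Sex was also uneven between the groups, with 2 of 3 Cre-negative and 0 of 3 Cre-positive arrays female. What lowered these counts was not tested. Under the other alternatives the count stayed within 1.5 times, from 48 (a difference of at least 0.5) to 70 (median centring). Leaving out 1 array gave 56 to 64 lower and 0 to 1 higher (Cox7a2l, without Cre-positive replicate 3), and 54 of the 66 calls held in all 6 such fits. The 12 that lost a call in at least 1 were Ndufa5, Ndufa7, Ndufa12, Ndufb3, Ndufb8, Ndufb10, Ndufs7, Ndufv3, Uqcrb, Cox6a2, Cox7c and Atp5c1-ps, with differences still below 0. Of the 66, 36 held with the sex term and 41 without the 2 arrays. With the replicate block limma called 62 lower and 0 higher. Whether the numbers pair the arrays is not given by the labels, and the correlations between arrays do not settle it.

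The median of all members was -0.60 with median centring and -0.45 with a second quantile normalization, against -0.54. In the same order complex I gave -0.60 and -0.45, and complex III -0.64 and -0.51, while complex II moved to -0.53 with the second quantile normalization. Complexes IV and V moved by less under each alternative run than the spread between arrays of their median level, which is a loose bound. For complex IV the Cre-positive medians were 7.82, 8.40 and 7.95 as levels but -0.42, -0.21 and -0.26 as deviations. Its median difference went from -0.30 to -0.20 with the second quantile normalization. Leaving out 1 array gave medians of -0.50 to -0.56 for all members, -0.48 to -0.56 for complex I, -0.63 to -0.68 for complex II, -0.56 to -0.60 for complex III, -0.27 to -0.35 for complex IV and -0.43 to -0.48 for complex V. No called member changed direction under any alternative run.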

Other observations

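Besides the 90 genes, 10 probe sets carried the symbol of a respiratory chain subunit together with that of another gene, so their signal cannot be given to 1 gene. In 9 of the 10 the groups did not overlap and Cre-positive arrays were lower, with differences down to -0.99. The same was true of 19.9% of all genes tested, which do not include these probe sets. The brightest, shared by Cox6c and Gm6265, went from 12.77 ± 0.01 (SD, n = 3) in the Cre-negative group to 12.45 ± 0.06 (SD, n = 3) in the Cre-positive group. The probe set of Uqcr10 and Gm6293 was at 7.98 ± 0.09 (SD, n = 3) against 7.31 ± 0.02 (SD, n = 3), and that of Ndufb4 and its copies at 9.28 ± 0.03 (SD, n = 3) against 8.87 ± 0.03 (SD, n = 3). The exception, shared by Ndufs1 and Ino80dos, stood at 6.50 ± 0.12 (SD, n = 3) against 6.55 ± 0.06 (SD, n = 3). Ino80dos is by its name an opposite-strand transcript. The Ndufs1 probe set used in the comparison fell.

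Of the 90 genes, 9 had a second, dimmer probe set. In 8 of the 9 it was lower in Cre-positive arrays, and 5 of the 9 passed an adjusted p of 0.05 when limma was fitted to all probe sets with 1 symbol. The share of all probe sets that passed in that fit was not counted, so the 5 of 9 has no such share beside it. For Cox7b the dimmer probe set passed (-0.45 ± 0.10, limma adjusted p = 0.0189) where the brighter did not (-0.26 ± 0.11). For Atp5e it was the reverse, with -0.86 ± 0.11 in the brighter and -0.22 ± 0.11 in the dimmer one.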
